A study of Rattus norvegicus with 24 samples.

Results

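The comparison described here set the hearts of rats given PM-L, the water-soluble part of an oil combustion particle without its solids, against the hearts of rats given saline. Its members were the 4 arrays labeled as the soluble leachate and the 4 arrays labeled as saline, 8 of 24 arrays in the series. All rats were male Wistar Kyoto rats, 12 to 14 weeks old when purchased and older when the hearts were collected. None carried a transgene or a disease model. Each rat was instilled into the trachea once a week with 1 ml/kg of fluid under halothane, and the heart was collected 48 hr after the last instillation. Saline rats received saline alone. PM-L was made by spinning the PM-HD suspension, the higher dose of the whole particle, at 12000 g and passing the fluid above the pellet through a filter of 0.25 μm pores. The labels give the PM-HD suspension 14.5 μg of soluble zinc and 3.0 μg of soluble nickel per mg of particle, and PM-L holds whatever else dissolved with them. By the design of the study, PM-L, PM-HD, and zinc sulfate rats received the same weekly amount of soluble zinc within an exposure schedule. The labels differ on the zinc sulfate solution, with 33.4 μg of zinc per ml, the dose of the 16-week schedule, in the treatment protocol and 14.5 μg/ml in the sample descriptions. The text of the study places the arrays of saline, MSH, PM-HD, and zinc sulfate rats at 8 weeks, and neither it nor the labels state the number of weeks for the PM-L arrays. The tissue was left ventricle with septum, and its RNA was read on Affymetrix Rat 230A arrays, 1 for each rat, while MSH (volcanic ash), PM-LD (the lower particle dose), PM-HD, and zinc sulfate rats, 4 in each group, were in the same fit. The question was which transcripts of the heart differed after weekly instillation of the soluble material alone.

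Several of the genes that differed most in PM-L hearts belong to the circadian clock, the transcriptional loop that gives cells a daily rhythm. In that loop BMAL1 and CLOCK bind E-box motifs and switch on the Period and Cryptochrome genes, the REV-ERB genes Nr1d1 and Nr1d2, the genes of the PAR bZIP factors DBP, TEF, and HLF, and the DEC genes Bhlhe40 and Bhlhe41. REV-ERB proteins sit on RORE motifs and hold down Bmal1 and Nfil3, while the PAR bZIP factors and their opponent NFIL3 share the D-box motif in genes further downstream. In the heart these transcripts rise and fall with the time of day, and the sources used here give no time of day for the collection of any heart. Zinc in excess acts on another set of genes, the metallothioneins, which bind the metal, and Slc30a1, which exports it, through the metal-sensing factor MTF1.

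The arrays were close in overall brightness, with a median signal of 218 to 278 in PM-L and 221 to 269 in saline hearts. Ventricular cardiomyocyte markers had the highest summed signal of the cell markers examined, and none of the 8 measured was called. Sums over unlike probe sets do not measure the share of each cell type. A measure tied to RNA breakdown differed widely between rats of both groups. By the text of the study, the ratio of large to small ribosomal RNA met a stated minimum in every sample. The source of the spread in the measure was not tested. The Gapdh ratio, 3′ over 5′ signal of the Gapdh control probe sets, grows as RNA breaks down, and it was 1.57, 1.11, 5.62, and 3.09 in PM-L replicates 1 to 4 and 1.35, 1.66, 2.08, and 5.48 in saline replicates 1 to 4 (exact permutation p = 0.914, two-sided). The mean log2 value of 4 atrial transcripts was 8.42, 13.2, 8.92, and 11.9 in PM-L and 12.5, 8.07, 7.81, and 8.72 in saline hearts (exact permutation p = 0.343), so that PM-L replicates 2 and 4 and saline replicate 1 held far more atrial message than the others. Saline replicate 1 also had a summed ventricular cardiomyocyte signal of 116067, against 179826 to 201073 in the other saline hearts. Its lung epithelium sum was 1834, against 291 to 532 in those hearts, from 5 genes all dimmer than the median probe set. That array bears a title whose number lies outside the run of the other arrays. What set it apart was not tested.

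**Figure D1:**
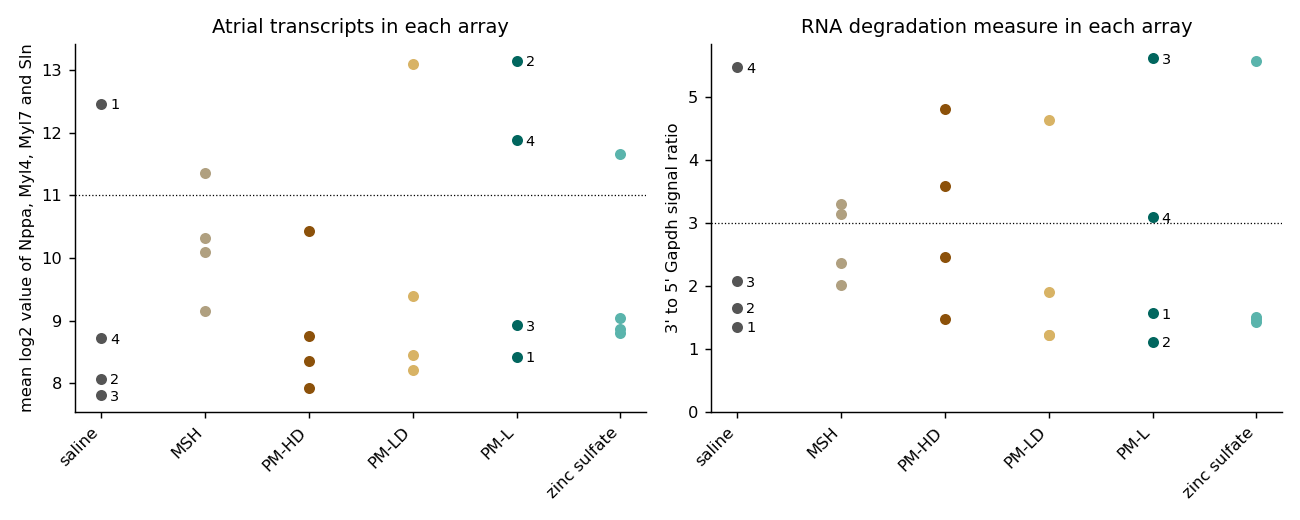
Left, mean log2 value of the atrial transcripts Nppa, Myl4, Myl7, and Sln in each array; right, Gapdh ratio (3′ over 5′ control signal) in each array, by exposure group, with the replicate numbers of saline and PM-L rats. Dotted lines mark the limits of 11 and 3 above which arrays were left out in 2 alternative fits; PM-L replicates 2 and 4 and saline replicate 1 lie above the first and PM-L replicates 3 and 4 and saline replicate 4 above the second.

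A probe set was called, as in the methods of the study, when its unadjusted limma p was under 0.05 and it was higher or lower by over 25%; "rose" and "fell" are used below only of called genes. Of 15866 probe sets tested, 385 (2.43%) were higher and 289 (1.82%) lower in PM-L than in saline hearts, with a median fold of 1.62 and 0.574. Counting each of 10411 named genes by its brightest probe set, 227 (2.18%) rose and 173 (1.66%) fell. Unadjusted p was under 0.05 in 737 probe sets, where 793.3 would be reached on average if nothing differed, and the 4 PM-L rats did not overlap the 4 saline rats in 376 (2.37%). The number of probe sets with unadjusted p under 0.05 was thus below that average. If nothing differed, a probe set would separate the 4 rats from the 4 with a probability of 0.0286. The share of 2.37% without overlap was thus below its average too. After Benjamini-Hochberg adjustment over all probe sets, limma called 2 probe sets (0.0126%), 1 of Dbp that rose and 1 of Rbms2 that fell, both at adjusted p = 0.040. These 2 calls were fragile. In limma, 0 probe sets passed without any one of the 4 PM-L arrays or without saline replicate 3 or 4. Without saline replicate 2, 4 passed. Without saline replicate 1 or 2, Dbp passed (limma adjusted p = 0.045 and 0.048) and the Rbms2 probe set did not (0.101 and 0.090). Without saline replicate 1, 435 rather than 289 probe sets were lower. The median log2 fold change over all genes was -0.0082. In RNA of whole tissue, fewer cells of a type and less RNA per cell cannot be told apart.

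**Figure D2:**
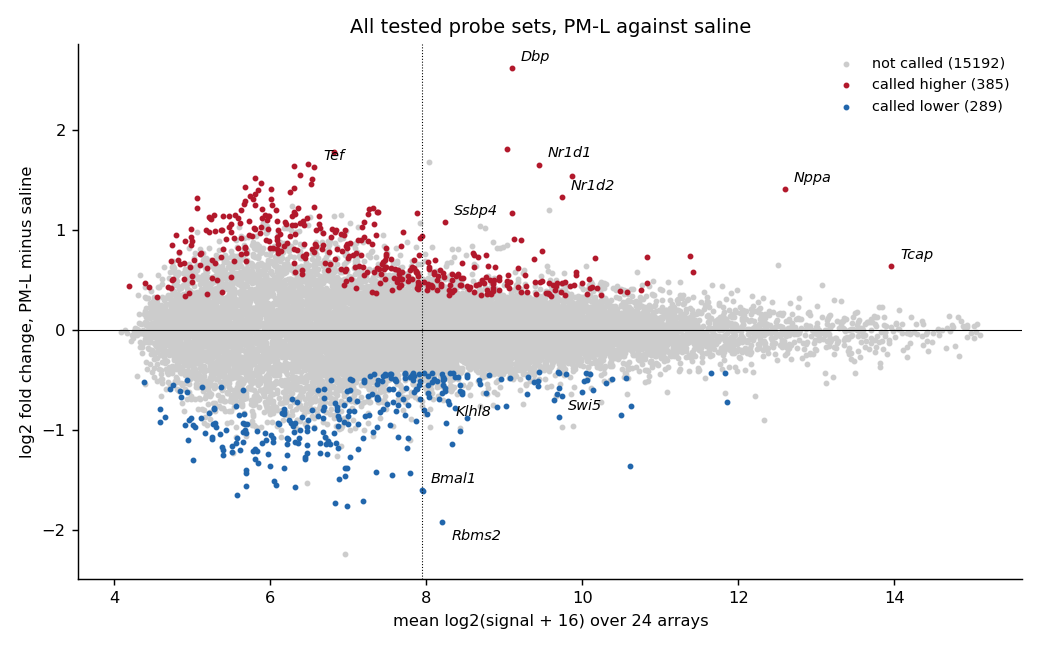
Log2 fold change of PM-L over saline (vertical axis) against mean log2(signal + 16) over 24 arrays (horizontal axis) for 15866 probe sets, with the 385 called higher in red and the 289 called lower in blue; the dotted line marks the median brightness. Most calls lie among dim probe sets, and Dbp at 2.61 and the Rbms2 probe set at -1.92 stand farthest from 0 among the bright ones.

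Dbp, the albumin D-box binding protein and the standard reporter of clock output, showed the largest difference of all called probe sets. Its signal was 230.4, 201, 145, and 124 in the 4 saline rats and 1129, 762, 1746, and 895 in the 4 PM-L rats, in the order of replicates 1 to 4. Every PM-L heart lay above 3 times the highest saline heart. Dbp rose 6.11-fold, a log2 fold change of 2.61 (standard error 0.42, limma adjusted p = 0.040), and the exact permutation p was 0.0286, two-sided, the smallest that 4 rats against 4 can give. Any gene without overlap reaches that value, so it adds nothing to the separation of the rats. Across the 24 alternative settings the log2 fold change ran from 2.17 to 3.19 and the gene was called in each. Its adjusted p was under 0.05 in 8 of the 21 settings that refit the model. It ran from 0.012 to 0.338 in limma and was 0.999 in a plain 2-sample test without pooled variances. Tef, which encodes the second PAR bZIP factor, had signals of 29.2, 65.3, 16.8, and 52.2 in saline and 124, 141, 227, and 139 in PM-L hearts. The groups did not overlap and Tef rose by 1.62 (standard error 0.42), but its probe set was dimmer than the median probe set. Hlf, the third member, ran from 106 to 185 in saline and from 175 to 239 in PM-L hearts, and its difference of 0.38 (95% interval -0.00 to 0.77) was not called. It was called without PM-L replicate 3 (0.45), saline replicate 1 (0.51), or saline replicate 4 (0.43) and stood at 0.25 without saline replicate 3.

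Both REV-ERB genes, whose products repress Bmal1, rose. Nr1d1 read 472, 391, 304, and 206 in saline and 1017, 1140.3, 1049.7, and 939 in PM-L hearts. The 4 PM-L hearts were closely spaced, at a mean signal of 1036 ± 83.4 (SD, n = 4) against 344 ± 114, and Nr1d1 rose by 1.65 in log2 units (standard error 0.33, limma adjusted p = 0.19). For Nr1d2 the brightest of 3 probe sets read 773, 719, 364, and 225 in saline and 1103, 943, 1188, and 1323 in PM-L hearts. It rose by 1.32 (standard error 0.32), without overlap between the groups. The other two probe sets were called too, at 1.81 and 1.33, and the former, with signals of 389.7, 366, 158, and 130.2 against 966, 851, 843, and 706, reached the lower adjusted p (0.11, limma). Without the arrays of high Gapdh ratio the difference of the brightest Nr1d2 probe set was 0.79.

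Bmal1, the transcriptional activator at the head of the loop, moved the other way. Its signal was 362, 344, 466, and 425 in saline and 198, 187, 12.2, and 293 in PM-L hearts, again without overlap. Bmal1 fell by 1.60 in log2 units (standard error 0.50, limma adjusted p = 0.82). PM-L replicate 3, the array with the Gapdh ratio of 5.62, was nearly dark for Bmal1, and without it the gene was still called at -0.76. Nfil3, which opposes the PAR bZIP factors and is itself held down by REV-ERB, read 367, 294, 533, and 491 in saline and 327, 364, 106, and 252 in PM-L hearts. The groups overlapped, and Nfil3 fell by 0.78 (standard error 0.28), a call lost without PM-L replicate 3 (-0.37) or without the arrays of high Gapdh ratio (-0.11). Clock itself, at 351 ± 53.9 in saline and 334 ± 24.9 in PM-L hearts, had a difference of -0.06 (95% interval -0.41 to 0.28; -0.22 to 0.02 when 1 rat was left out) and was not called. Cry2, a repressor of the loop, ran from 313 to 562 in saline and from 459 to 720.3 in PM-L hearts. It rose by 0.43 (standard error 0.20), a call that was lost without PM-L replicate 2 (0.43), 3 (0.38), or 4 (0.36) or saline replicate 1 (0.29), 2 (0.45), or 4 (0.46). The dimmer second probe set of Cry2 was called too, at 0.90 (standard error 0.33).

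The Period and DEC genes, the other repressors of BMAL1 and CLOCK, were less uniform. Bhlhe40 (DEC1) read 198, 194, 152, and 151 in saline and 266, 429.5, 277, and 272 in PM-L hearts. The groups did not overlap and Bhlhe40 rose by 0.74 (standard error 0.28), a call that was lost without PM-L replicate 2 (0.54) or saline replicate 4 (0.61). Bhlhe41 (DEC2) ran from 125 to 519 in saline and from 442 to 825 in PM-L hearts, a difference of 1.02 (95% interval -0.04 to 2.08) that was not called with all arrays and was called without PM-L replicate 3 (1.17) or saline replicate 1 (1.33). Without saline replicate 4 it was 0.61. None of the 3 Period genes was called with all arrays. The differences were -0.29 (95% interval -1.69 to 1.11) for Per1, 0.58 (-0.24 to 1.40) for Per2, and 0.45 (-0.16 to 1.07) for Per3, which was dim at 9.40 to 53.8 in all 8 hearts. Per3 was called without PM-L replicate 2 (0.65) and Per2 stood at 0.33 without PM-L replicate 3. These intervals are wide enough to hold changes as large as those of Bhlhe40. Usp2, a clock-driven deubiquitinase, was not called either (0.26, 95% interval -0.59 to 1.11) and its signal in PM-L hearts ran from 366 to 2039.7, wider than the 678 to 952 of saline hearts. It was called without PM-L replicate 4 (0.76) and turned in sign without PM-L replicate 3 (-0.12), and Per1 turned in sign without PM-L replicate 4 (0.02) or saline replicate 4 (0.03) and without the arrays of high Gapdh ratio (0.09) or atrial content (0.11).

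Counted together, 5 of the 11 measured clock genes on the list that includes Dbp rose and 0 fell, against 2.18% and 1.66% over all genes, with a median log2 fold change of 0.74 against -0.0082 (0.61 to 0.85 when 1 rat was left out). Of the 4 measured genes on the list that includes Bmal1, Bmal1 and Nfil3 fell and Cry2 rose. Between 4 and 7 of the 11 were called in each fit that left out 1 array or the arrays of high Gapdh ratio or atrial content. The genes were listed with earlier results of these data known, so these counts describe the direction and do not test it.

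**Figure D3:**
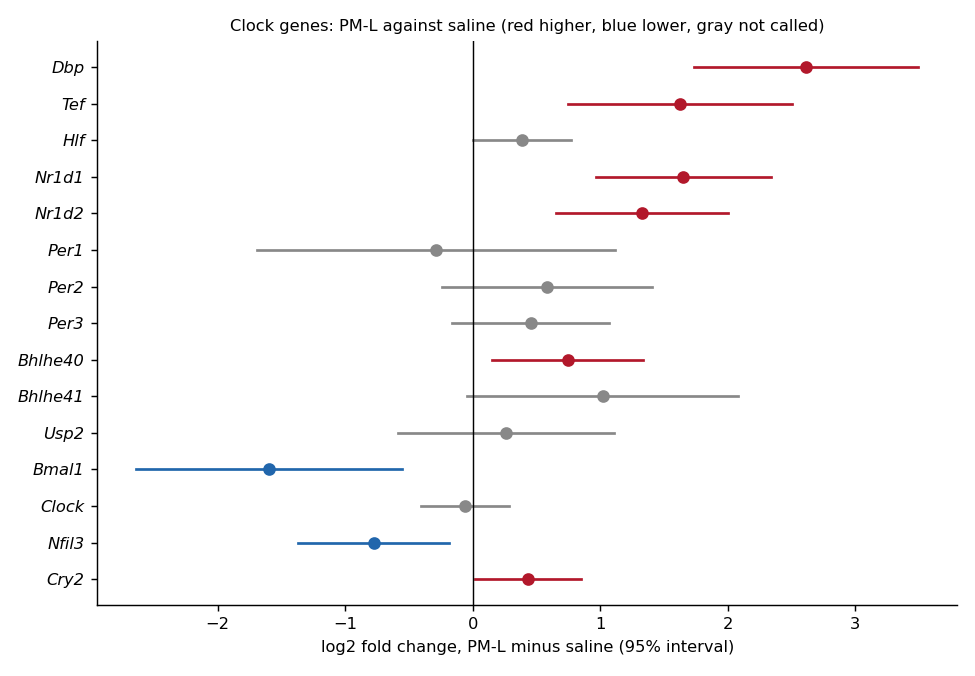
Log2 fold change of PM-L over saline with its 95% interval for the 15 measured clock genes; red marks genes called higher, blue lower, and gray not called. Dbp, Tef, Nr1d1, Nr1d2, Bhlhe40, and Cry2 lie right of 0 and Bmal1 and Nfil3 left of it.

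**Figure D4:**
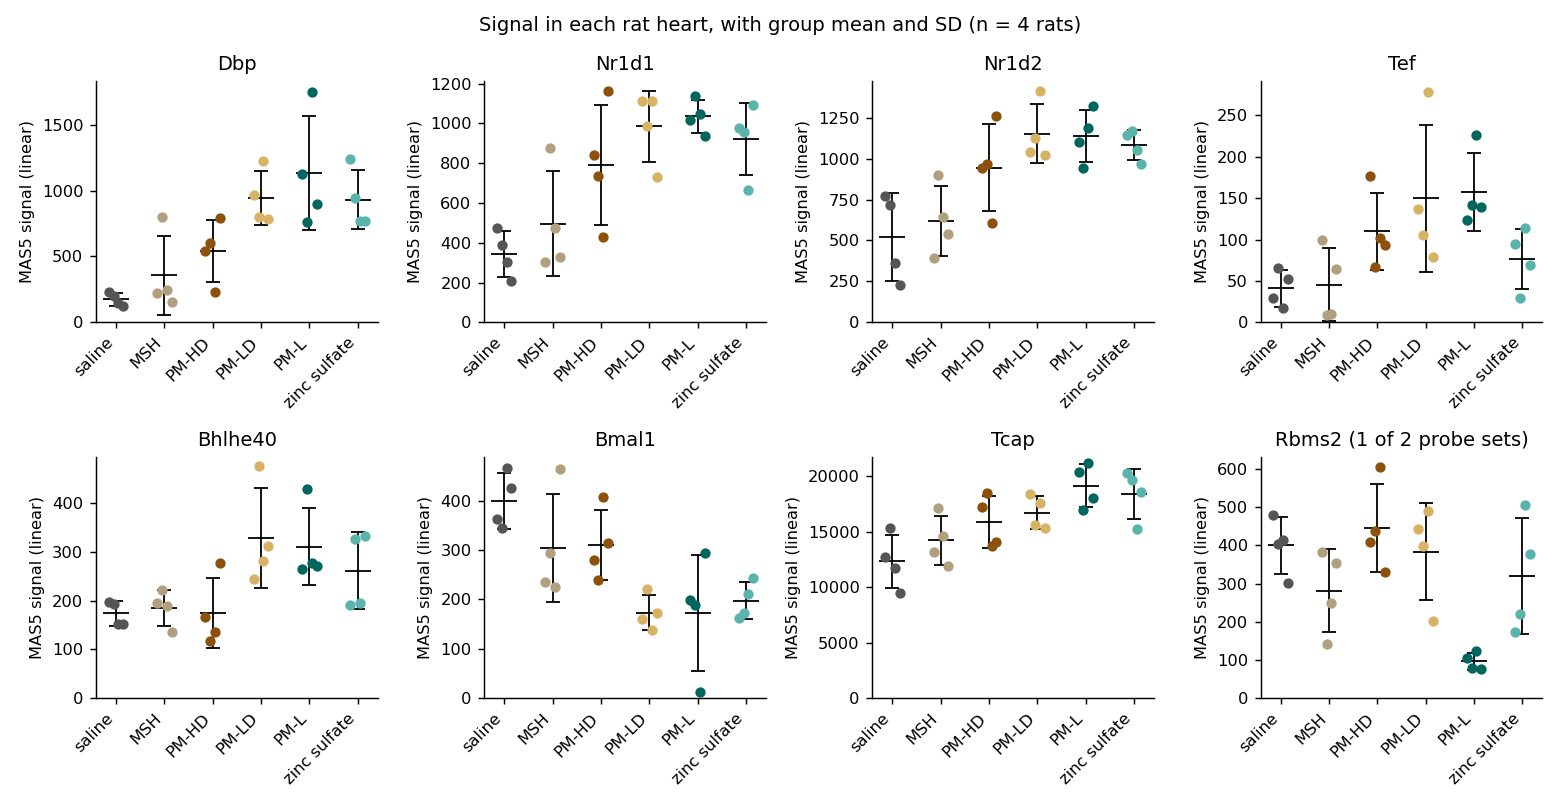
Signal on a linear scale (vertical axis) in each of 4 rats of the 6 groups (horizontal axis), with mean and SD, for 8 genes. PM-L rats lie above all saline rats for Dbp, Nr1d1, Nr1d2, Tef, Bhlhe40, and Tcap and below them for Bmal1 and the Rbms2 probe set; zinc sulfate and PM-LD rats have Dbp, Nr1d1, and Bmal1 signals near those of PM-L rats.

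The promoters of these genes, 250 bases before to 50 bases after the RefSeq start on assembly GRCr8, were searched on both strands for the E-box CACGTG, the D-box TTANGTAA, and the RORE TAGGTCA. Of 10 matched promoters on the list that includes Dbp, 3 held an E-box (Tef, Bhlhe40, and Bhlhe41), against 6.65% of 27457 rat promoters, and 1 held a D-box (Per2, against 2.19%). The Bmal1 promoter held a RORE, as did 2.6% of all promoters. These motifs were not confined to clock genes. Among 9 matched promoters of the largest increases described here and below, 3 held an E-box (Ivns1abp, Snx2, and Stxbp2). A RORE was also in the windows of Ivns1abp, which rose, and Swi5, which fell. The windows of Dbp, Nr1d1, and Nr1d2 held none of the 3 motifs, which says only that these letters are not in this window. The same windows were searched for the metal response element, as TGCACNC (in 12.2% of all promoters) or TGCGCNC (15%). Of the 10 promoters, 2 held the former (Dbp and Nr1d1) and 3 the latter (Nr1d1, Tef, and Per2). Shown are the Tef and Bhlhe40 promoters, whose E-boxes start at bases 53 and 31 of the window, and the Bmal1 promoter, whose RORE starts at base 235, for the risen and the fallen arm of the loop; capitals mark the motif. Tef lies at chr7:115206577-115206876 (plus strand), Bhlhe40 at chr4:143174200-143174499 (plus strand), and Bmal1 at chr1:176766078-176766377 (plus strand).
Tef: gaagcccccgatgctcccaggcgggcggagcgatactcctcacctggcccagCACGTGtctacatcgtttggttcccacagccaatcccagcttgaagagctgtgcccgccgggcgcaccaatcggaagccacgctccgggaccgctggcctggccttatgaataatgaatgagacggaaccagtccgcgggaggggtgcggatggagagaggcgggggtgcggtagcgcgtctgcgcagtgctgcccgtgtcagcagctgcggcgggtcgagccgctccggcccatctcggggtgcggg
Bhlhe40: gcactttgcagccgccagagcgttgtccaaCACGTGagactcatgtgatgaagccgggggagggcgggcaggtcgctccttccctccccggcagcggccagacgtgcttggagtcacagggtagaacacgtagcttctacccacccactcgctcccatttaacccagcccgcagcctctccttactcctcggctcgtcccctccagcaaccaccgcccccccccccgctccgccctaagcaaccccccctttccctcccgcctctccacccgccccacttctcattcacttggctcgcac
Bmal1: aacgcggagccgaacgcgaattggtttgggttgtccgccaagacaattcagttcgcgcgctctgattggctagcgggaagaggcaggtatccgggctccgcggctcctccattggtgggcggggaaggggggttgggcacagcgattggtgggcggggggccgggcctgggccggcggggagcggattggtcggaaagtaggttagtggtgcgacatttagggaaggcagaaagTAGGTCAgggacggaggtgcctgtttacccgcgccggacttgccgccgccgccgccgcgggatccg
These matches are a description of sequence, and no binding was measured.

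Set directly against zinc sulfate hearts, which by design received the same soluble zinc without the other leached material, PM-L hearts did not differ detectably in the clock genes. The difference PM-L minus zinc sulfate was 0.26 for Dbp (95% interval -0.62 to 1.14), 0.20 for Nr1d1 (-0.49 to 0.88), 0.08 for Nr1d2 (-0.59 to 0.75), 0.84 for Tef (-0.04 to 1.71), and -0.72 for Bmal1 (-1.76 to 0.32). For Dbp, the zinc sulfate rats read 1239, 945, 769.6, and 767, which lies within the range of the PM-L rats. The intervals for Dbp, Tef, and Bmal1 reach past a 2-fold difference and do not show that both materials act alike. Against PM-HD, the whole suspension, Dbp was higher in PM-L hearts by 1.16 (limma adjusted p = 0.99), with PM-HD rats at 542, 599.8, 228, and 793. Bhlhe40 was likewise called higher (by 0.80) and Bmal1 lower (-1.22) in PM-L than in PM-HD hearts, while Nr1d1, Nr1d2, and Tef were not called in that comparison.

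Outside the clock, the largest increases among bright genes without overlap were modest. Ssbp4, which encodes a single-stranded DNA binding protein, read 261, 225, 77.9, and 162 in saline and 289, 290.2, 496, and 417 in PM-L hearts and rose by 1.07 (standard error 0.25). Saline replicate 1, at 261, came close to the lowest PM-L rat, at 289. Tcap, which encodes titin cap (telethonin) of the sarcomeric Z-disc, is a strongly expressed gene of heart muscle. It read 12765, 15310.3, 11744, and 9496 in saline and 20431, 17005, 21187, and 18043 in PM-L hearts. Tcap rose by 0.63 (standard error 0.16, limma adjusted p = 0.71) and was called in all 24 alternative settings, at 0.44 to 0.84, while the other 25 measured genes of sarcomere and contractile proteins were not called and the list had a median of -0.04. Ivns1abp, which encodes a Kelch protein that binds actin, read 1891, 1545, 1319, and 961 in saline and 2479.7, 2049.7, 2648, and 1819 in PM-L hearts and rose by 0.73 (standard error 0.24). The lowest PM-L rat and the highest saline rat, at 1819 and 1891, overlapped on the raw scale and not after normalization. Its value was 1.10 without the arrays of high atrial content.

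The 12 largest increases of this kind were taken, and the rest of them lay between 0.47 and 0.63 on the log2 scale. Snx2, which encodes a sorting nexin of endosomes, rose by 0.63 from 312 ± 29.6 to 494 ± 107 (SD, n = 4). Acacb, which encodes the mitochondrial acetyl-CoA carboxylase whose product, malonyl-CoA, restrains fatty acid entry, rose by 0.58 from 217 ± 33.9 to 337 ± 48.6 and was not called without PM-L replicate 2 (0.48). Stxbp2, which encodes a syntaxin-binding protein of exocytosis, rose by 0.52 from 279.6 ± 47.0 to 414 ± 47.4. Mxi1, which encodes an antagonist of MYC and is a gene induced by hypoxia, rose by 0.49 from 629 ± 111 to 877 ± 86.6. Its dimmer second probe set rose by 1.18, so that the mean over both was 0.83. It was the only 1 of 31 measured genes of the hypoxia list that was called. Csgalnact2, which encodes an enzyme of chondroitin sulfate synthesis, rose by 0.50, a call lost without PM-L replicate 3 (0.38), and Syf2, which encodes a splicing factor, rose by 0.47. Stxbp2, Mxi1, and Csgalnact2 were also called higher than in zinc sulfate hearts, by 0.62, 0.36, and 0.41.

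Rbms2, which encodes an RNA-binding protein that acts on single-stranded targets, gave the decrease with the lowest adjusted p and also a disagreement between probes. One of its 2 probe sets read 479.8, 405, 415, and 301 in saline and 105, 77.4, 124, and 76.5 in PM-L hearts. All 4 PM-L hearts lay under the lowest heart of every other group, the nearest being an MSH rat at 141. The probe set fell by 1.92 in log2 units (standard error 0.32, limma adjusted p = 0.040), and also against zinc sulfate (-1.62, adjusted p = 0.50) and PM-HD hearts (-2.06, adjusted p = 0.030). Against saline it stayed called in every fit that left out 1 array, but its limma adjusted p there was 0.075 to 0.232. The brighter probe set of the gene read 1015, 818, 1049, and 1115 in saline and 1031, 618, 1195, and 914 in PM-L hearts, a difference of -0.09 (95% interval -0.53 to 0.35) that was not called. Rbms2 was therefore not among the genes chosen by their brightest probe set, and it is described because its values were seen.

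Among bright genes without overlap, 11 fell. Klhl8, which encodes a Kelch-like adaptor of a ubiquitin ligase, read 314, 413, 277, and 452 in saline and 148, 178, 152, and 282 in PM-L hearts. It fell by 0.93 (standard error 0.26), while its second probe set, at -0.24, was not called and the mean over both was -0.58. Swi5, which encodes a partner of homologous recombination repair, read 723, 1071, 1009, and 932 in saline and 470.0, 363, 552, and 653 in PM-L hearts. The groups were well apart and Swi5 fell by 0.87 (standard error 0.18, limma adjusted p = 0.23), and it was also called lower than in zinc sulfate (-0.45) and PM-HD hearts (-0.90). Aph1a, which encodes a subunit of gamma-secretase, fell by 0.58 from 910.0 ± 64.7 to 614 ± 114 (SD, n = 4). Erf, which encodes a repressor of the ETS family, fell by 0.54 from 412 ± 41.8 to 286 ± 56.1, and Plagl2, which encodes a zinc finger transcription factor, by 0.63 from 301 ± 36.4 to 196 ± 29.6. Trim8, which encodes a RING-type ubiquitin ligase, fell by 0.51 from 466 ± 80.7 to 329 ± 62.3. Klhl8, Swi5, Aph1a, Erf, and Trim8 kept their call in all 24 alternative settings.

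The other decreases were less certain. Efs, which encodes a docking protein of SRC kinases, read 55.2, 206, 225, and 195 in PM-L hearts and fell by 0.80, and was not called without PM-L replicate 1 (-0.41). Kbtbd4, which encodes another Kelch adaptor, Fem1c, which encodes a receptor of a cullin ligase, and Paxx, which encodes a factor of DNA end joining, fell by 0.55, 0.47, and 0.47 and were not called without PM-L replicate 3 (-0.29, -0.39, and -0.37). C19h19orf53 fell by 0.42, just past the threshold. Its call was lost without PM-L replicate 2 (-0.44), 3 (-0.34), or 4 (-0.45) or saline replicate 2 (-0.39), 3 (-0.39), or 4 (-0.43), and its other two probe sets, at 0.27 and 0.12, were not called. On the separate list of muscle ubiquitin ligases and protein turnover, 0 of 28 measured genes were called.

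Few genes of zinc handling were called. Of 19 measured, 1 rose and 1 fell, where 2.18% of all genes rose and 1.66% fell, and the median of -0.02 ran from -0.07 to 0.11 when 1 rat was left out. Mt2A, a metallothionein, read 666, 838, 337, and 663 in saline and 975, 1047, 825, and 892 in PM-L hearts, which overlapped only through saline replicate 2. The difference of 0.64 (95% interval -0.17 to 1.45) was not called with all arrays and was called without the arrays of high Gapdh ratio (0.82). It was 0.37 without saline replicate 3, the lowest saline heart, and the difference from zinc sulfate was -0.07 (-0.88 to 0.74). The Mt1 probe set was dim, at 9.70 to 92.2 in all 8 hearts (0.26, -0.86 to 1.39) and turned in sign without PM-L replicate 4 (-0.16), and Mt3 was not called (-0.30, -1.06 to 0.46; -0.06 without saline replicate 1). Slc30a1, the zinc exporter of the cell membrane, read 146, 118, 174, and 153 in saline and 145, 192, 240.2, and 246 in PM-L hearts. It rose by 0.40 (standard error 0.17), with overlap, and the call was lost without PM-L replicate 2 (0.37), 3 (0.39), or 4 (0.33) or saline replicate 2 (0.34) or 4 (0.34). Slc30a2, a transporter that moves zinc into vesicles, read 168, 152, 235, and 352 in saline and 116, 146, 213, and 156 in PM-L hearts. It fell by 0.50 (standard error 0.21), and the call was lost without PM-L replicate 1 (-0.41) or 4 (-0.48) or saline replicate 3 (-0.48) or 4 (-0.32). Neither transporter was called against zinc sulfate hearts (0.27 and -0.12). Of the 14 measured genes of iron, copper, and nickel handling, 0 were called.

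Genes of energy metabolism and mitochondria gave few calls. None of 21 measured genes of the tricarboxylic acid cycle list was called, and their median of -0.10 ran from -0.27 to 0.04 when 1 rat was left out, being above 0 without PM-L replicate 3. Aco1, the cytosolic aconitase, differed by 0.10 (95% interval -0.24 to 0.44), from 515 ± 79.6 to 551 ± 37.9 (SD, n = 4). Of 48 genes of electron transport and ATP synthase, 0 were called, 2 passed the limit on p with smaller folds, 38 lay below and 10 above 0, and all differences lay between -0.34 and 0.26. Their median of -0.08 was -0.01 without PM-L replicate 3 and -0.15 without saline replicate 4. Mitochondrial DNA upkeep (17 genes) likewise had 0 calls. Among 38 genes of mitochondrial fatty acid metabolism, Acacb rose and Ucp3, which encodes a mitochondrial carrier induced by fatty acids, fell. Ucp3 read 289.5, 354, 316, and 550.2 in saline and 189.7, 326, 382, and 235 in PM-L hearts, with overlap, and fell by 0.43, a call lost without PM-L replicate 1 (-0.30) or 4 (-0.34) or saline replicate 2 (-0.43) or 4 (-0.27). It was also the only call among 26 genes of the PPAR alpha fuel switch and 39 of antioxidant defense. Ribosomal (32) and proteasome (30) genes had 0 calls.

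Stress and inflammation gave few calls, and their lists did not lean in a common direction. None of 26 heat shock and chaperone genes was called, and 19 lay below and 7 above 0. Their median of -0.11 was 0.05 without PM-L replicate 3 and -0.19 without PM-L replicate 2. Hspa1a, which encodes the inducible heat shock protein 70, differed by 0.02 (95% interval -0.60 to 0.63; -0.18 to 0.24 when 1 rat was left out). Of 36 genes of the acute phase and inflammation, 1 rose and 2 fell, beside the 2.18% and 1.66% over all genes. Of the 36, 17 lay above and 19 below 0. Ccl5, a chemokine that draws T cells, read 388, 262, 263, and 278 in saline and 364, 411, 705, and 589 in PM-L hearts and rose by 0.76 (standard error 0.27), also against zinc sulfate hearts (0.68). Saline replicate 1 lay above PM-L replicate 1, and without the arrays of high Gapdh ratio the gene was not called (0.40). Stat3, a transcription factor of cytokine signaling, read 1204, 1914, 1652, and 1582 in saline and 1013, 1275, 914, and 1358 in PM-L hearts. It fell by 0.48, a call lost without PM-L replicate 3 (-0.38) or saline replicate 2 (-0.40), and its second probe set, at -0.16, was not called. Nos2, the inducible nitric oxide synthase, was dim at 34.2 to 54.5 in PM-L hearts and ran from 34.3 to 473 in saline hearts. It fell by 1.23, a call lost without PM-L replicate 1 (-1.17), 2 (-1.28), 3 (-1.18), or 4 (-1.28) or saline replicate 3 (-1.04) or 4 (-0.65). Antigen presentation (19 genes) had 0 calls, with 13 genes above and 6 below 0. Of 7 measured macrophage markers, 7 had positive differences (median 0.25) and 1, C1qb, was called, with a summed signal of 2945 to 4798 in PM-L and 2392 to 4480 in saline hearts. The macrophage sums overlapped. Of 7 T and B lymphocyte markers, all dimmer than the median probe set, 6 had positive differences (median 0.34). So did 6 of 7 fibroblast markers (median 0.28), and none of either list was called. The part of macrophage or other cell content in the inflammatory genes was not tested.

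In the cell cycle list, 2 of 40 genes rose and 2 fell, beside 2.18% and 1.66% over all genes, so that the calls shared no direction. Of the 40, 26 lay above and 14 below 0. Mki67, the proliferation marker, rose by 1.00 from 55.6, 58.7, 49.4, and 40.7 in saline to 121, 68.9, 173, and 151 in PM-L hearts, and Cdc25b, a phosphatase that starts mitosis, rose by 0.44. Birc5 (survivin), which protects dividing cells, fell by 0.94 from 144, 149, 140.1, and 103 to 88.6, 31.5, 61.7, and 87.9, and E2f5 fell by 0.52. Markers of division thus moved in both directions, and the Mki67, Birc5, and E2f5 probe sets were dimmer than the median probe set. The Cdc25b call was lost without PM-L replicate 3 (0.18) or saline replicate 1 (0.39), 2 (0.43), or 4 (0.41), and that of E2f5 without PM-L replicate 1 (-0.46) or 3 (-0.37) or saline replicate 1 (-0.52) or 4 (-0.44). Birc5 was called lower than in zinc sulfate (-0.76) and PM-HD hearts (-1.28) too. Cdkn1a, the gene of p21, a brake on the cell cycle, read 1196, 1325, 1569, and 1568 in saline and 1047, 1200.3, 1442, and 581 in PM-L hearts. Its difference of -0.47 (95% interval -0.95 to 0.01) was not called, and was called without PM-L replicate 2 (-0.54) or 3 (-0.66) or saline replicate 1 (-0.56). Without PM-L replicate 4, the lowest heart at 581, it was -0.19. The dimmer second probe set of Cdkn1a did fall, by 1.71, from 291, 235, 405, and 369 to 148, 134, 185, and 9.0.

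Klf10 and Glul were the only calls of their lists, the immediate early genes (32) and the genes induced by glucocorticoids (20). Klf10, an early growth response factor, rose by 0.73, but saline replicate 4, at 77.8, lay far under the other saline hearts, at 329 to 348. The Klf10 call was lost without PM-L replicate 1 (0.78), 2 (0.69), or 4 (0.65) or saline replicate 4 (0.19). Glul, which encodes glutamine synthetase, read 1539, 1459.8, 1401, and 1591 in saline and 2098, 2539.5, 1653, and 1677 in PM-L hearts. It rose by 0.40 without overlap, a call lost without PM-L replicate 2 (0.30), while its other two probe sets, at 0.57 and 0.36, were not called.

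Nppa, which encodes atrial natriuretic peptide, was the single call among 22 genes of the fetal program of cardiac stress. It read 10123, 3891, 3226, and 1752 in saline and 9332, 19843, 3726, and 14329 in PM-L hearts and rose by 1.41 (standard error 0.59), with overlap. All 4 atrial markers, Nppa, Myl4, Myl7, and Sln, had positive differences of 1.04 to 1.67, and the summed signal of the 4 ran from 4582 to 43218 in PM-L and from 2667 to 24938 in saline hearts. The Nppa call was lost without PM-L replicate 2 or 4 or saline replicate 3 or 4, at values of 1.05 to 1.31. Nppa is itself 1 of the 4 atrial transcripts, so leaving out arrays by their atrial content does not test it, and the part of atrial tissue in this result was not tested.

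Calls were few among ion channels (2 higher and 1 lower of 37), matrix genes (2 higher of 41), and phosphatases (1 lower of 40), beside 2.18% higher and 1.66% lower over all genes. Among 37 genes of potassium, sodium, and chloride transport, Atp1b2, which encodes a beta subunit of the sodium pump, rose by 0.86 from 41.5, 68.9, 40.7, and 40.5 to 93.5, 124, 84.2, and 105. These signals were dim but did not overlap, and the call was lost without the arrays of high atrial content (0.69). Kcnj8, a subunit of the ATP-sensitive potassium channel, rose by 0.45 and Kcnk3, a background potassium channel, fell by 0.43. Both overlapped between groups, and the calls were lost without PM-L replicate 1 (0.48), 3 (0.34), or 4 (0.36) or saline replicate 1 (0.32), 2 (0.49), or 3 (0.46) for Kcnj8 and without PM-L replicate 1 (-0.43) or 3 (-0.26) or saline replicate 1 (-0.41), 2 (-0.39), or 3 (-0.44) for Kcnk3. The dimmer probe sets of Kcnk3 stood at -0.84, which was called, and at 0.38, which was not. The Kcnk3 call was lost in the mean over its probe sets. None of 32 genes of calcium handling was called. Among 41 genes of the extracellular matrix and its proteases, Col18a1, a collagen of basement membranes, rose by 0.40 and Mmp12, the macrophage elastase, by 0.86. The former call was lost without PM-L replicate 3 (0.29) or 4 (0.34) or saline replicate 1 (0.37) or 2 (0.33). The latter was lost without PM-L replicate 2 (0.88), 3 (0.65), or 4 (0.84) or saline replicate 2 (0.62) or 4 (0.85). The dimmer second probe set of Col18a1, at 0.23, was not called, and the Col18a1 call was lost in the mean over both. Ptpre, a tyrosine phosphatase, fell by 1.29 at a dim signal of 25.1 ± 17.3 in PM-L hearts (SD, n = 4) as the only call of 40 phosphatases, a call lost without PM-L replicate 1 (-1.15) or 2 (-1.16) or saline replicate 2 (-1.04) or 4 (-1.05). The 46 genes of MAPK, PI3K, PKA, and PKC signaling had 0 calls.

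**Figure D5:**
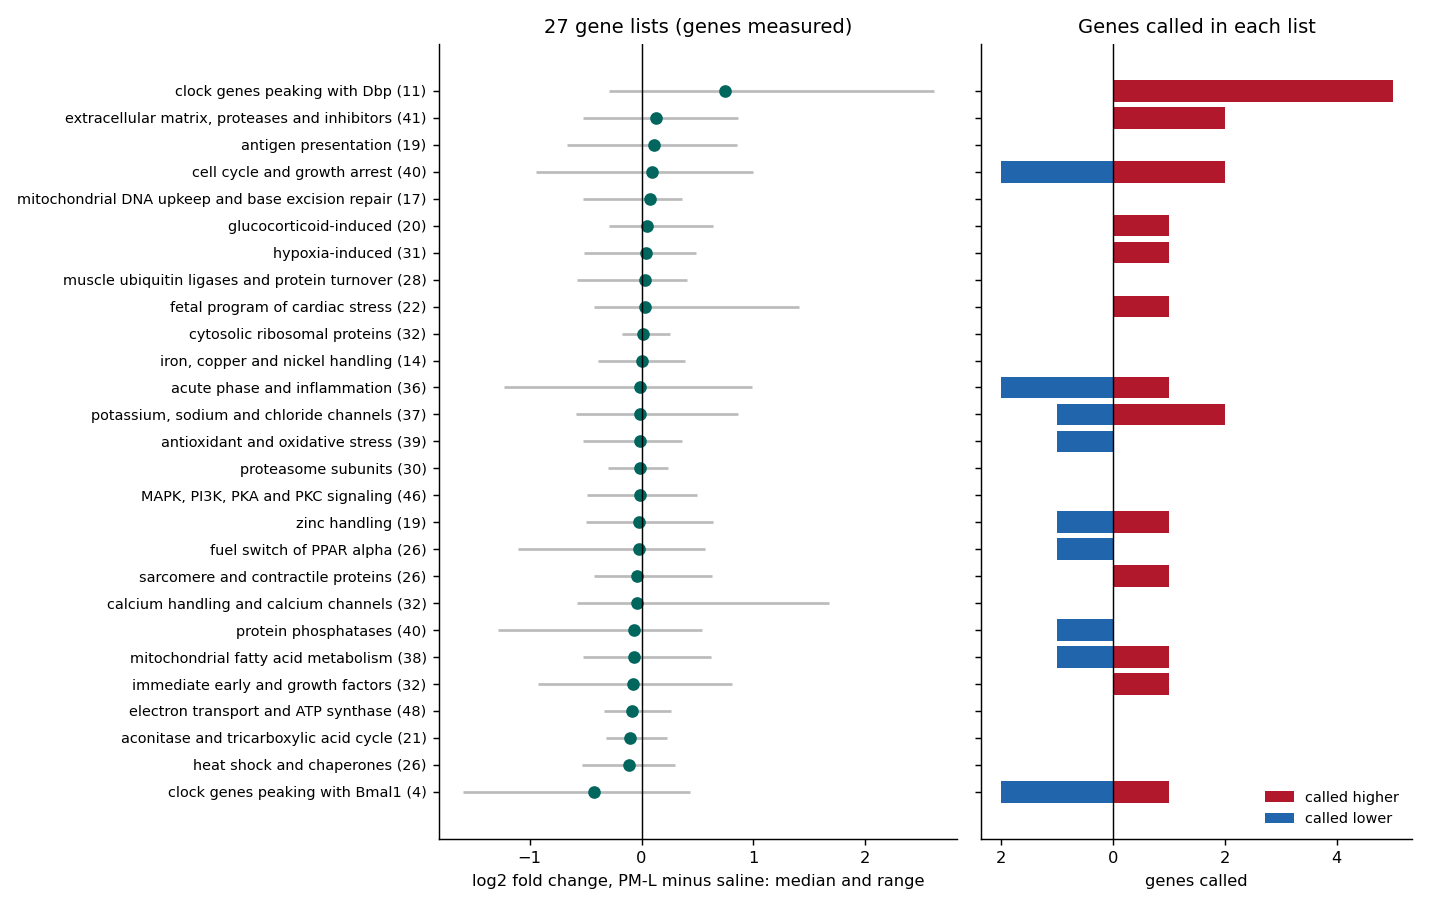
Left, median (point) and range (line) of the log2 fold change of PM-L over saline in 27 gene lists, with the number of genes measured in parentheses; right, number of genes called higher (red) and lower (blue) in each. The clock list that includes Dbp lies at 0.74 with 5 genes called higher, and 25 other lists have medians between -0.11 and 0.13.

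Of the alternatives, leaving out the arrays of high Gapdh ratio ended the most calls. That fit dropped the arrays above the limit in any of the 6 groups and left 2 PM-L and 3 saline rats. Dropping arrays of other groups also changed the pooled spread behind each limma p. In that fit, 20 of the 47 called genes described here kept their call. Ssbp4 (0.77), Snx2 (0.39), Csgalnact2 (0.31), Syf2 (0.28), Plagl2 (-0.50), Kbtbd4 (-0.28), Fem1c (-0.27), Paxx (-0.37), and Mki67 (0.62) were among those not called, whereas Dbp (2.17), Nr1d1, Tef, Bhlhe40, and Bmal1 (-0.88) were. With the arrays above the atrial limit dropped in the same way, 33 of the 47 kept their call. Acacb (0.50) and Bhlhe40 (0.65) were not called, while Efs (-1.22), Bmal1 (-2.53), Nfil3 (-1.17), Stat3 (-0.84), and Cdc25b (0.73) moved farther from 0 and were called.

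Of genes that the study discusses, 3 more were looked at and not called with all arrays, namely Ptprm, a receptor tyrosine phosphatase (0.32, 95% interval -0.03 to 0.67), Ccnd1, which encodes cyclin D1 (0.17, -0.29 to 0.62), and Fabp3, the heart fatty acid binding protein (0.02, -0.43 to 0.47). Fabp3 was strongly expressed, at 24321 ± 4563 in saline and 25238 ± 4687 in PM-L hearts (SD, n = 4). Without PM-L replicate 2, Ptprm (0.44) and Ccnd1 (0.43) were called, and Ccnd1 stood at -0.01 without PM-L replicate 3. Fabp3 ran from -0.07 to 0.14 when 1 rat was left out. Hsp90aa1 was not matched to a probe set of 1 symbol and was not analysed here.

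Of the 47 called genes described above by their brightest probe set, 8 were also called against zinc sulfate hearts and 19 against PM-HD hearts, where 4.08% and 4.08% of all probe sets were called. These comparisons share the PM-L arrays by which the genes were chosen, so the counts are not set against those percentages. Against zinc sulfate the 8 were Stxbp2, Csgalnact2, Mxi1, Swi5, Efs, Ccl5, Stat3, and Birc5, and no probe set of the whole table passed adjusted p under 0.05 (lowest limma adjusted p = 0.50, with 708 probe sets at unadjusted p under 0.05). Against PM-HD, adjusted p was under 0.05 in 1 probe set, the one of Rbms2 that fell.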

How the data were processed

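Heart RNA of 24 rats, 4 in each of 6 groups, was hybridised to 1 array per rat. The values deposited by the authors are linear MAS5 signal intensity values per probe set, scaled per array, from 0.1 to 61915; the methods describe RMA values, which were not used here (MAS5 version not given in the sources used here). Array data have no read depth, so the number of rats limits the precision. Here, 57 control probe sets were left out, 16 was added, log2 values were quantile normalized over 24 arrays, and limma 3.58.1 (R 4.3.3) fitted 1 mean per group, with contrasts of PM-L against saline, zinc sulfate, and PM-HD and Benjamini-Hochberg adjustment over 15866 probe sets. The code was tested on simulated data. Exact permutation tests (scipy 1.17.1, two-sided) used 70 arrangements. Of the probe sets, 12783 had 1 gene symbol, 312 several, and 2771 none, and 12748 of those with 1 symbol matched RefSeq. A gene was read from its brightest probe set. Named genes were up to 12 in each direction with the largest changes among called, bright genes without overlap after normalization, up to 4 called members of each list, all measured clock genes, metallothioneins, 2 zinc transporters, Aco1, and a few genes the study names. Genes and lists were chosen with earlier results of these data known. Each array was 1 rat, and the limma p-values set each group difference against a spread between rats pooled over the 6 groups. Alternatives varied the added constant, normalization, filter, model, fold limits, and arrays used.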

Additional observations from a re-analysis of the deposited data

Results flagged for a closer look

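In 126 groups of 4 rats, formed by 63 genes in PM-L and saline hearts, 8 held a rat whose gap to the nearest of the others passed Dixon's 95% limit on the normalized scale, where chance alone gives about 1 in 20. The count of 8 was thus close to what chance alone gives. Of these 8, 4 fell on PM-L replicate 3, the array with the highest Gapdh ratio of the PM-L group. Its signal was 12.2 for Bmal1, against 187 to 293 in the other PM-L hearts. It was 138 for Kbtbd4, against 233 to 279, and 629 for C19h19orf53, against 704 to 748. For Clock it was 313, against 318 to 368, a gap that was small on the raw scale. PM-L replicate 1 read 748 for Mxi1, against 914 to 933 in the other PM-L hearts. Among saline hearts, replicate 3 read 1006 for Aph1a, against 869 to 887, replicate 4 read 77.8 for Klf10, against 329 to 348, and replicate 2 read 47.3 for Mt1, against 9.70 to 14.8. What set these rats apart was not tested.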

How the results depend on the processing

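The counts of 385 higher and 289 lower probe sets stayed within 1.5 times under most alternatives. Leaving out dim probe sets gave 137 higher and 88 lower, from fewer probe sets tested, and a plain 2-sample test without pooled variances gave 209 and 140. Without the arrays of high atrial content 488 were lower. Leaving out 1 rat at a time gave 325 to 467 higher and 258 to 435 lower. The 2 probe sets past adjusted p under 0.05 in limma became 1, that of Dbp, with 64 added in place of 16 and also without further normalization. They became 0 with only the 8 arrays of the comparison, with the plain 2-sample test, with the Gapdh ratio or the atrial mean as a covariate, and without the arrays of high Gapdh ratio or high atrial content, and ranged from 0 to 4 when 1 rat was left out. The replicate numbers were not treated as pairs. Same-numbered rats correlated at 0.0067 to 0.44 in their deviations, and not every rat correlated best with its own number. PM-L replicate 3 correlated best with saline replicate 4 (0.58), and both had a high Gapdh ratio. Such shared spread can hide a pairing, so these values cannot decide whether the numbers pair the rats. With the replicate block 403 were higher, 316 lower, and 0 passed adjusted p. No called gene changed direction. Of the 47 called genes, 27 kept their call in the plain test, 33 with only the 8 arrays, 46 with the replicate block, 41 with median centring, and 40 with 64 added, and 31 to 41 when 1 rat was left out. With 64 added, the log2 fold changes of the dim genes Tef, Mki67, Atp1b2, and Ptpre shrank to 1.05, 0.66, 0.55, and -0.75. The causes were not tested. The standard error of a bright probe set had a median of 0.215, against 0.358 for a dim one, so that changes of dim genes were less certain.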
